A study of Mus musculus with 2 samples.

Results

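Nanog peaks centred in repeats are the peaks of an embryonic stem cell (ESC) ChIP-seq list whose middle base falls in repeat sequence, away from gene starts. A peak was taken as a member when its middle base was soft-masked, that is, written in lower case in the GRCm38 sequence because a repeat finder had marked it, and when it lay over 5 kb from the transcription start site (TSS) of every GENCODE vM21 gene. Of 8735 distinct peaks on chromosomes 1 to 19 and X, 1375 (15.7%) met both conditions, and they made up 21.2% of the 6477 peaks over 5 kb from a TSS (exact 95% interval 20.2 to 22.2). The remaining 5102 of those distal peaks had an unmasked middle base and are called unmasked distal peaks below. Of the sequenced bases of chromosomes 1 to 19 and X, at any distance from a TSS, 34.3% were masked, a larger share than the 21.2%. In all, 1776 peaks had a masked middle base, and those within 5 kb of a TSS were not members. Nearest to the limit, the last repeat-centred peak left out lay 4992 bp from a TSS and the first member lay at 5007 bp. Each gene had 1 TSS, its annotated 5′ end, and 134 members lay within 5 kb of the start of another annotated transcript.

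The study immunoprecipitated Nanog-bound chromatin from Bruce-4 cells, an established mouse ESC line, which was grown in serum with leukaemia inhibitory factor and carried no further treatment. It holds 1 immunoprecipitated sample and 1 input sample, and the peak list of the former is analysed here. The list gives positions only, with no score, read depth or summit, and there is no replicate. Intervals therefore cover counting error alone, treat peaks as independent, and no test between conditions was possible.

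Nanog is a homeodomain transcription factor of the pluripotency network, and it occupies many sites together with Oct4 and Sox2. Transposable elements are sequences that were copied throughout the genome. Copies of 1 element start out alike, so a transcription factor motif within the element is spread with it, and endogenous retroviruses are known to carry binding sites for pluripotency factors in mouse ESCs.

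The members were first grouped by sequence, because repeats differ from other loci in having relatives. The central stretches of the members were aligned to each other with blastn. At 80% identity over at least 100 bp, 805 members (58.5%, interval 55.9 to 61.2) aligned to another member, against 479 unmasked distal peaks (9.39%, interval 8.60 to 10.2) aligned among themselves. This difference follows in part from the rule, which chose members by repeat sequence. Linking alignments of 100 bp chained 725 members into 1 group. Alignments of at least 200 bp separated them, with 690 members (50.2%) in 27 groups, and the 10 groups with 5 or more members are called families 1 to 10. Together the families held 648 members (47.1%). Family 1 had 326 members (23.7%) and family 2 had 205 (14.9%), and they left 844 members outside both. Families 3 to 6 had 25, 22, 22 and 21 members, and families 7 to 10 had 9, 7, 6 and 5. Copies of families 1 and 2 were separate in the genome, with 5 family 1 copies within 2 kb of a family 2 copy.

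Sequences of family 2 are shown because the same Sox-type letters recurred at 1 place in them. Capitals mark the Sox motif, searched as CCATTGT or CCTTTGT on both strands; all sequences are from GRCm38, 5′ to 3′ on the strand given. The third peak held these letters slightly before the place they had in the others, and the last line is a copy in which no peak was listed.
Family 2 peak, chr13:11030958-11031078, plus strand: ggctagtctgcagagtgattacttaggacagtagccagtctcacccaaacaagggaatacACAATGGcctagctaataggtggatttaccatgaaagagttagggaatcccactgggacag
Family 2 peak, chr1:23971235-23971355, plus strand: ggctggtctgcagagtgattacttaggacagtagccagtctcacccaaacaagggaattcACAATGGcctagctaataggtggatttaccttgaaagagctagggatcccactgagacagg
Family 2 peak, chr6:10569659-10569779, minus strand: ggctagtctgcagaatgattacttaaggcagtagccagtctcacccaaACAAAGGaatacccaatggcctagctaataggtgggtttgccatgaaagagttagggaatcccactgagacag
Family 2 copy without a peak, chr15:45148984-45149104, plus strand: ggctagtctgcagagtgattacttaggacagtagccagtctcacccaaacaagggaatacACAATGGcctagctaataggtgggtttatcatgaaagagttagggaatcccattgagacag

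Family 1 sequences did not share that motif, but the short form ATTGTT stood at 1 place in them. This short form was chosen after the sequences had been seen. Capitals mark it below, in windows around the place where peak middles were most often centred, with a copy without a peak as the last line.
Family 1 peak, chr13:7169500-7169650, minus strand: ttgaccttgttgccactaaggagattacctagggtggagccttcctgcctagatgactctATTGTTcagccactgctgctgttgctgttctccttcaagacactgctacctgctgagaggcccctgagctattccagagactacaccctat
Family 1 peak, chr8:52455733-52455883, minus strand: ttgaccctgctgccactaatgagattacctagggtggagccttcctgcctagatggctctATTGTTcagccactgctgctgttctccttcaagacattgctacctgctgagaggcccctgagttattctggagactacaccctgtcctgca
Family 1 copy without a peak, chr9:38631869-38632019, minus strand: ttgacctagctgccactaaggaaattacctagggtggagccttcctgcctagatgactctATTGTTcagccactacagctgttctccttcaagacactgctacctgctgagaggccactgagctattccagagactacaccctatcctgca

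Family 3 is shown for its Tead motif (GGAATG), a site of the Hippo pathway effectors, and AP-1 motif (TGACTCA or TGAGTCA), a site of Fos and Jun proteins. Both are in capitals and share letters, so a copy of the stretch counts for both.
Family 3 peak, chr2:12077635-12077735, plus strand: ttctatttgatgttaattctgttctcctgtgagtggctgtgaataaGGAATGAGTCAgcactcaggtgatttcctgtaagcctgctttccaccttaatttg
Family 3 peak, chr9:84503174-84503274, plus strand: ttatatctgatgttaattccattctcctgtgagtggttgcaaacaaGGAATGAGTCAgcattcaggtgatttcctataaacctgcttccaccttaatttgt

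Families 6 and 7 are shown for the Oct octamer (ATGCAAAT), the site of Oct4 and related POU factors, in capitals.
Family 6 peak, chr3:35817028-35817108, plus strand: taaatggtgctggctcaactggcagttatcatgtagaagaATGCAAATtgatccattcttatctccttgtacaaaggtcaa
Family 6 copy without a peak, chr8:104317707-104317787, plus strand: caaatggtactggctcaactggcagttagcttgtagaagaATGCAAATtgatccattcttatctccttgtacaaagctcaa
Family 7 peak, chr16:20479183-20479283, plus strand: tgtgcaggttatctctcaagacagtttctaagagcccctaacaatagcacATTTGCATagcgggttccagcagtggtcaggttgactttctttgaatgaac

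Family 9 is shown by its member with most kinds of motif, a wholly masked peak of 278 bp in which capitals mark a Nanog core motif (CCATTA, here on the other strand), and a Sox motif that runs into a match to the Oct4-Sox2 composite motif.
Family 9 peak, chr10:14833914-14834191, plus strand: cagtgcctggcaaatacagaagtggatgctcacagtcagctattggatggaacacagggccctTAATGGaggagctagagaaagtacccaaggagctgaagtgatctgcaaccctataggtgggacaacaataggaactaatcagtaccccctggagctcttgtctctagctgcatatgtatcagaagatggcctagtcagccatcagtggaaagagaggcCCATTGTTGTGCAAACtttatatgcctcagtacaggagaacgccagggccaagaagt

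The last set comes from members outside the 5 largest groups and is shown because these members had the most kinds of pluripotency motif. Capitals mark the motifs named above together with those of Klf factors (GCCNCNCCC, with A or C as the first N and A or G as the second) and of the nuclear receptor Esrrb (TCAAGGTCA). In the windows near Cry1 and Gm12166 the composite and the octamer overlap.
Peak near Cry1, chr10:85209292-85209531, plus strand: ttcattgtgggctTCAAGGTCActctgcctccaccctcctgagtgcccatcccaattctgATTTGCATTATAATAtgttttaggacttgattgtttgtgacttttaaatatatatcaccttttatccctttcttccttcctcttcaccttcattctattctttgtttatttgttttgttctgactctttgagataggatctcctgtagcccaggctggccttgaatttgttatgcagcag
Peak near Gm12166, chr11:46020367-46020606, plus strand: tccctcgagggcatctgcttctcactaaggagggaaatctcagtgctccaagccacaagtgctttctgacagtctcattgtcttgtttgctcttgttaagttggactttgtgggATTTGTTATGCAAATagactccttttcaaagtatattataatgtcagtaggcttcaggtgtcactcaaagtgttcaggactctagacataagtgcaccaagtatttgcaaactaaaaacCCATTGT
Peak near Kcnj12, chr11:61004120-61004359, plus strand: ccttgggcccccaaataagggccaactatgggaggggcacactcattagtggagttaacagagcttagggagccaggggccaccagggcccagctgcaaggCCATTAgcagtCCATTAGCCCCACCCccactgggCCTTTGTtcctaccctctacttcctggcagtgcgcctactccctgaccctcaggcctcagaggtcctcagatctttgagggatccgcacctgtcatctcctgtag
Peak near Tdrp, chr8:14014859-14015098, plus strand: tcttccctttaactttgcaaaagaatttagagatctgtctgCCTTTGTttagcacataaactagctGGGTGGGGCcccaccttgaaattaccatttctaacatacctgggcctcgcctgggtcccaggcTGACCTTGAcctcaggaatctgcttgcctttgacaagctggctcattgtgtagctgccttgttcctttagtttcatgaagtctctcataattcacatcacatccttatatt

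The mask that chose the members covered a median of 57.4% of their bases, with quartiles of 30.0 and 79.1%, against 8.47% in unmasked distal peaks, a difference that follows from the rule. The unbroken masked stretch over the middle base was 64 bp long in the median member (quartiles 28 and 143 bp) and ranged from 19 to 2123 bp. In 578 members (42.0%) this stretch was shorter than 50 bp, and 142 of those (24.6%) aligned to another member. In 387 members it was 100 to 299 bp long, and 354 of those (91.5%) aligned to another. Of the 119 members with a stretch of at least 300 bp, 117 (98.3%) did. Members thus ranged from peaks that met a short masked stretch by their middle base to peaks inside long elements. In 34 members every base was masked. The masked share fell from 65.5% within 50 bp of the middle to 51.5% at 50 to 100 bp and 35.4% at 950 to 1000 bp, where the genome as a whole had 34.3%. In unmasked distal peaks it rose from 9.29% to 26.8% over the same distances.

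**Figure D1:**
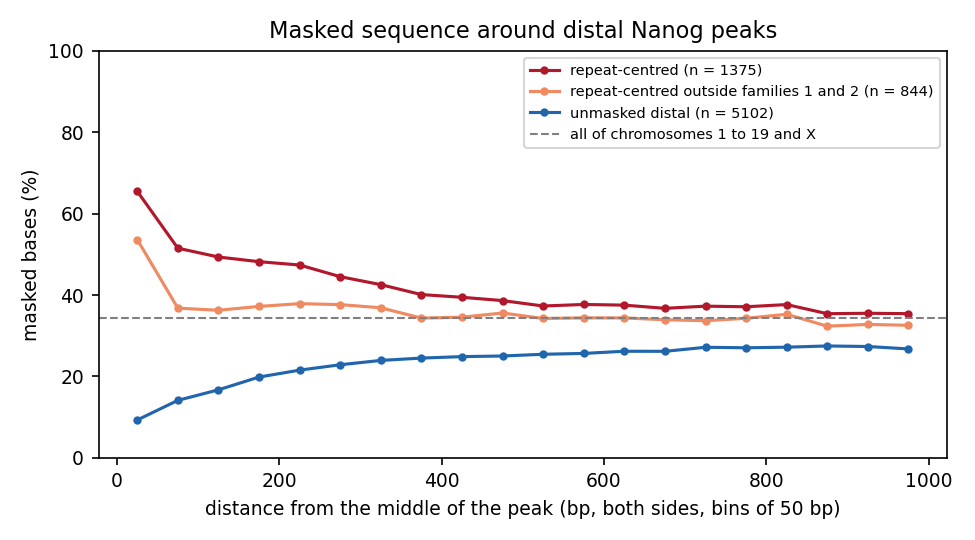
Masked bases (%) against distance from the middle of the peak (bp, both sides, bins of 50 bp) for repeat-centred peaks, those outside families 1 and 2, and unmasked distal peaks, with the genome's share of 34.3% as a dashed line. In members outside families 1 and 2 the share dropped from 53.6% in the first bin to 36.8% in the next and lay between 36.3 and 37.9% as far as 350 bp, and over all members it fell gradually, to 42.5% at 300 to 350 bp.

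Repeat identity could be read only from the few elements annotated in the RefSeq assembly and from 4 small-RNA genes of GENCODE. Similarity to B1_Mus2, a short interspersed element, was found in 50 members (3.64%) and in 144 unmasked distal peaks (2.82%). In 10 of those members the alignment covered the middle base. Similarity to Rn7s1, a gene of the 7SL RNA from which B1 elements descend, was found in 6 members, and to Bc1, the gene of a brain cytoplasmic RNA, in 2. LTRIS4, the long terminal repeat of a retrotransposon annotated at chr17:34825295-34825783, aligned to 7 members, all of them among the 9 of family 7, and to no unmasked distal peak. Neither AmnSINE1, MuRRS4-int nor Rn7sk aligned to a member. In all, 59 members (4.29%) resembled an annotated element, so that the identity of families 1 to 6 and 8 to 10 is not given here. No member met a strict definition of a simple repeat (0 of 1375, which allows up to 0.268% by the exact interval). It required 1 unbroken stretch of exact period 1 to 6 bases over at least 60% of the bases around the middle. Arrays with mismatches and shorter arrays were not counted, so their absence is not shown.

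Reads can be placed only where a sequence differs from its relatives, so the uniqueness of the members was measured. The central stretch of 1 read length occurred once in the genome in 1368 members (99.5%, interval 98.95 to 99.8) and in 5096 unmasked distal peaks (99.9%). Short words differed between the sets, which again follows in part from the rule. The median 24-base word of a peak had 10 or more copies in 232 members (16.9%) and in 14 unmasked distal peaks (0.274%). That share was 30.9% in families 1 and 2 and 8.06% in the other members.

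Genome copies of each family were then searched for by aligning a representative member, cut to the stretch its relatives shared. A copy had to match at 80% identity over 80% of that length, so more distant or partial copies were not counted. Since the families were defined from peaks, the shares below describe the copies found and were not tested. Family 1 had 918 copies, and 213 of them (23.2%, interval 20.5 to 26.1) had a Nanog peak centred in them. Family 2 had 645 copies and 178 with a peak (27.6%, interval 24.2 to 31.2). These peaks were not all members: 29 in family 1 and 25 in family 2 were unmasked distal peaks, and 38 and 37 lay within 5 kb of a TSS. Members accounted for 146 of the 213 and 116 of the 178, while families 1 and 2 had 326 and 205 members. Many family members thus lay outside the copies counted. Family 4, with 33 of 383 copies (8.62%), and family 3, with 35 of 1562 (2.24%), came next. The more numerous families were rarely occupied, with 16 of 6949 copies in family 5 (0.230%), 17 of 35376 in family 6 (0.0481%) and 5 of 88546 in family 9 (0.00565%). Family 7, the LTRIS4-like one, had a peak in 8 of 838 copies (0.955%).

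**Figure D2:**
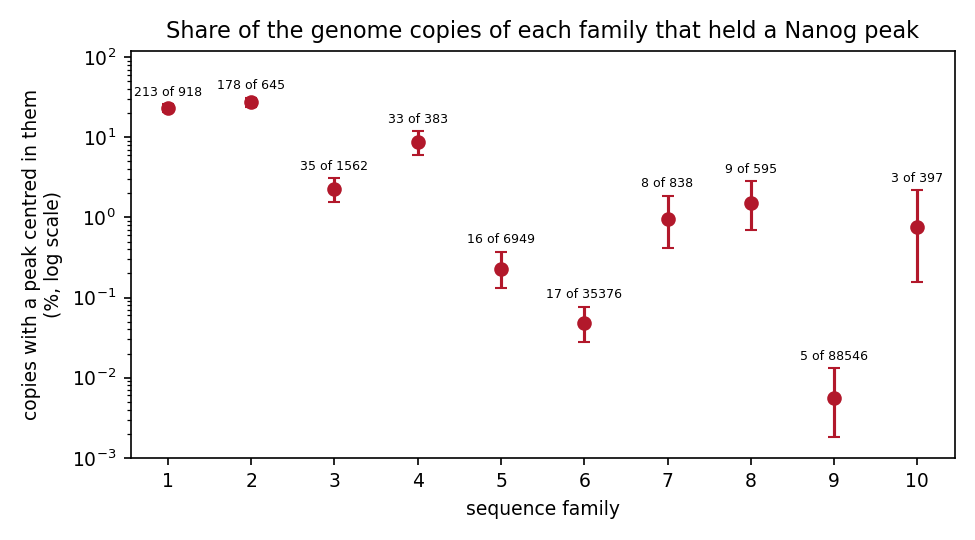
Share of genome copies with a Nanog peak centred in them (%, log scale) for the 10 families, with exact 95% intervals and the counts. Families 1 and 2 stood at 23.2 and 27.6%, and family 9, with 88546 copies, at 0.00565%.

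Copies with a peak had the higher median identity to the representative, itself a member, in 8 of the 10 families, by small amounts in the largest. The median was 84.3% with a peak and 83.8% without one in family 1, and 87.4 and 86.9% in family 2. It was 86.7 and 83.6% in family 4, 87.3 and 84.8% in family 9 and 84.0 and 81.4% in family 10, and 82.9 and 83.4% in family 5. Copies also differed in uniqueness: the central read-length stretch was unique in all 213 family 1 copies with a peak and in 602 of 705 without (85.4%), and in all 178 against 437 of 467 (93.6%) in family 2. Whether copies that reads cannot be assigned to were occupied cannot be told from the list. The other families ran the same way, with 16 of 17 unique family 6 copies with a peak and 57.2% of those without.

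Chromosome X held few peaks of either kind. Of the 111 family 1 copies on X, 4 (3.604%, interval 0.990 to 8.97) had a peak, against 209 of 807 (25.9%) on the autosomes, a ratio of 0.139 (interval 0.0528 to 0.367). In family 2 the values were 3 of 82 (3.66%) and 175 of 563 (31.1%), a ratio of 0.118 (interval 0.0385 to 0.360). Members as a whole numbered 23 on X (1.67%) and unmasked distal peaks 76 (1.49%), while X makes up 6.49% of the sequence. The part that the number of X chromosomes in this line, or its read depth, had in this was not tested. Across the autosomes, members made up between 14.4% of distal peaks on chromosome 8 and 27.8% on chromosome 18.

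The Sox letters of family 2 were present with and without a peak. They were found in 138 of 178 copies with a peak (77.5%, interval 70.7 to 83.4) and in 348 of 467 without (74.5%), a ratio of 1.04 (interval 0.946 to 1.14). In 136 of the 178 they stood at the same place of the core, and in 345 of the 467 copies without a peak they also stood there. In 133 of the 178, counted with or without the letters, the middle of the peak lay within 50 bp of that place. The core was cut from a window centred on a peak, and these copies had a peak centred in them. Nearness of peak middles to a place in the core thus follows in part from the search. Among family 2 copies without the letters, 40 of 159 (25.2%) had a peak, and among those with them 28.4% did.

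In family 1 the short form ATTGTT was found in 165 of 213 copies with a peak (77.5%) and in 488 of 705 without (69.2%), a ratio of 1.12 (interval 1.03 to 1.22). All 165 of the copies with a peak that held it had it at the same place, and the middle of the peak lay within 50 bp of that place in 171 of the 213. Copies with the letters had a peak in 25.3% of cases, and the 265 copies without them in 18.1%. These 6 letters are common: they occurred in 33.7% of members outside family 1, in 31.3% of unmasked distal peaks and in 23.1% of windows beside the members. The 7-base Sox motif was found in 30 of 326 family 1 members (9.20%), the composite in 1 and the octamer in 4. Tead letters were less common with a peak (48.4%) than without (63.7%), a ratio of 0.759 (interval 0.654 to 0.882). The middle of the peak lay within 50 bp of the most frequent place of the Tead letters in 5 of the 213.

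**Figure D3:**
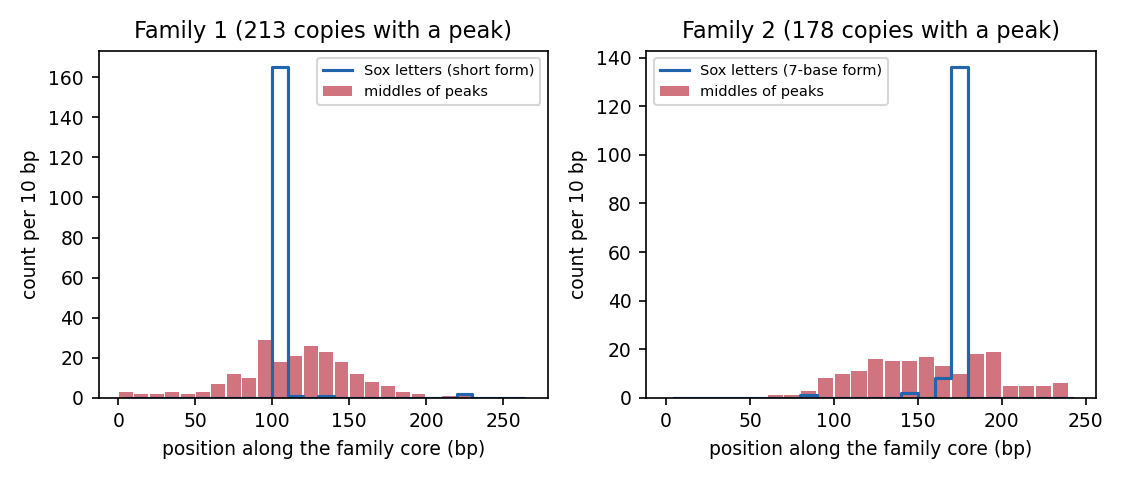
Middles of peaks (bars) and letters labelled Sox (lines) along the core of each family, as counts per 10 bp. Counts cover the 213 and 178 copies with a peak. The lines show ATTGTT, chosen after the sequences had been seen, in family 1 and the 7-base Sox motif in family 2. In family 1 the 7-base motif was found in 11 of the 213 copies. The letters stood at 1 place in 165 and 136 copies, and the middles of the peaks were spread over about 100 bp around it. Without a peak, 485 of 705 and 345 of 467 copies had the letters at that place.

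Other letters were found in the smaller families, in some beside those of Sox. In family 3 the AP-1 motif was found in 28 of 35 copies with a peak and in 70.7% of those without, and the Tead motif in 22 of 35 and in 67.0%. The middle of the peak lay within 50 bp of the place of the AP-1 motif in 16 of the 35. No copy of family 3 with a peak had a Sox, Klf, Esrrb, octamer or composite match. In family 4, Sox letters were found in 6 of 33 copies with a peak (18.2%) and in 28.6% of those without, and the short form ATTGTT in 11 of 33 and in 31.4%. Esrrb letters were found in 5 of the 33 (15.2%) and in 14 of 350 without a peak (4.00%), but in 0 of the 33 was the middle of the peak within 50 bp of the place of these letters. In family 5, Tead letters were found in 3 of 16 copies with a peak (18.8%) and in 28.2% of those without, and AP-1 letters in 3 of 16 and in 58 of 6933 (0.837%).

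Family 6, of which very few copies were occupied, differed from its unoccupied copies in several motifs. The octamer was found in 10 of 17 copies with a peak (58.8%) and in 15.6% of 35359 without, a ratio of 3.78 (interval 2.54 to 5.62). These counts are over the aligned copy and not the peak, and the middle of the peak lay within 50 bp of the place of the octamer in 3 of the 17. Sox letters were found in 8 of 17 (47.1%) and in 14.7%, a ratio with an interval of 1.93 to 5.30. The composite was found in 2 of the 17 and in 28 of the others (0.0792%). A Nanog core motif was found in 3 of 17 and in 4.26%. All 17 rest on 1 library, and 57.2% of the copies without a peak were unique at their middle. In family 7 the octamer was found in 6 of 8 copies with a peak and in 80.4% of those without, so that there it did not set them apart.

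Motif content over all members was compared with unmasked distal peaks, which came from the same list under the same distance rule. The composite motif was found in 32 members (2.33%, interval 1.60 to 3.27) and in 218 unmasked distal peaks (4.27%), a ratio of 0.545 (interval 0.378 to 0.786). The octamer was found in 57 members (4.15%) and in 6.55% of unmasked distal peaks, a ratio of 0.633 (interval 0.481 to 0.833). The Klf motif was found in 74 (5.38%) and in 8.21%, a ratio of 0.655 (interval 0.516 to 0.833). Sox letters occurred in 394 members (28.7%) and in 30.1% of unmasked distal peaks, a ratio whose interval spanned 1 (0.868 to 1.05). The Nanog core motif occurred in 230 members (16.7%) and in 19.1%, a ratio of 0.874 (interval 0.767 to 0.997). The Esrrb motif, in 59 members (4.29%) and in 3.31%, was the only 1 of the 6 with a ratio above 1 (1.30, interval 0.969 to 1.73). When distal peaks were instead split by whether at least 50% of their bases were masked, whatever the middle base, that ratio was 0.834 (interval 0.575 to 1.21). At least 1 of the 6 was found in 692 members (50.3%) and in 54.7% of unmasked distal peaks.

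Several of these ratios were nearer to 1 outside families 1 and 2. Among their 531 members, 1 had the composite, 5 the octamer, 7 the Klf and 7 the Esrrb motif, while 178 (33.5%) had Sox letters. In the 844 members outside them the ratios to unmasked distal peaks were 0.860 for the composite (interval 0.594 to 1.24), 0.941 for the octamer (interval 0.709 to 1.25) and 0.967 for Klf (interval 0.755 to 1.24). The Esrrb motif was found in 52 of these 844 (6.16%), which is 1.86 times the share of unmasked distal peaks (interval 1.37 to 2.52). For Sox letters the ratio was 0.851 (interval 0.753 to 0.962).

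**Figure D4:**
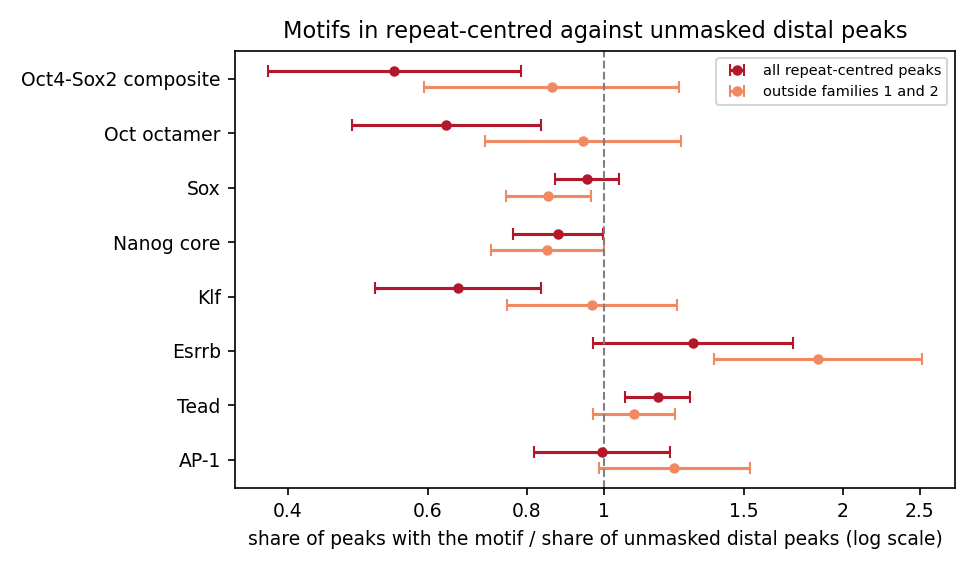
Share of repeat-centred peaks with a motif over the share of unmasked distal peaks (log scale), with 95% intervals, for all 1375 members and for the 844 outside families 1 and 2. The composite, octamer and Klf ratios of 0.545, 0.633 and 0.655 moved to 0.860, 0.941 and 0.967, and the Esrrb ratio from 1.30 to 1.86.

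Compared with windows beside them and with repeat windows of the genome, members held more of most pluripotency motifs. Windows of the same width, 1 kb beyond each edge and clear of listed peaks, had the composite in 12 of 2722 (0.441%). Members held it 5.28 times as often (interval 2.73 to 10.2). The ratio was 4.87 for Esrrb (interval 3.04 to 7.79), 3.05 for Klf (interval 2.13 to 4.36), 2.60 for Sox (interval 2.27 to 2.98), 1.55 for the octamer (interval 1.10 to 2.17) and 1.23 for the Nanog core (interval 1.06 to 1.43). A second comparison used every consecutive window of 300 bp in the genome that was centred in masked sequence over 5 kb from a TSS, 2488000 windows in all. Windows that overlapped a Nanog peak were not removed from it. In windows of that length around their middle, members held the Esrrb motif 7.19 times as often (4.00 against 0.556%), the composite 5.49 times (2.18 against 0.398%) and the Klf motif 5.03 times (4.65 against 0.925%). Sox letters stood at 26.98 against 11.8%. The octamer (3.78 against 3.54%, 0.819 to 1.40) and the Nanog core (13.5 against 12.6%, 0.933 to 1.22) had ratios whose intervals spanned 1. Unmasked distal peaks, set against windows with an unmasked middle base, had ratios of 7.87 (composite), 6.66 (Klf) and 4.61 (Esrrb). Their ratio was 2.61 with Sox letters, while the Nanog core had 1.31 and the octamer 2.69. Motif shares above those of windows were thus not particular to members, and only the Esrrb ratio was higher in members. Windows were chosen by their middle base and not matched for masked share.

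Copies of 5 of the 6 motifs were at least 2.59 times as dense within 50 bp of the middle of members as at 500 to 1000 bp, and those of the Nanog core 1.21 times. Nanog core copies numbered 0.531 per kb within 50 bp and were densest, at 0.967 per kb (133 copies), at 150 to 200 bp. Outside families 1 and 2 these densities were 0.699 and 0.521 per kb, and in unmasked distal peaks the Nanog core stood at 0.841 per kb within 50 bp and at 0.432 at 500 to 1000 bp. Sox copies numbered 1.44 per kb within 50 bp of the middle and 0.425 per kb at 500 to 1000 bp in members, and 1.63 and 0.393 in unmasked distal peaks. Esrrb copies numbered 0.175 and 0.0320 per kb in members, from 24 copies within 50 bp. For the composite, the count within 50 bp was 14, a density 5.19 times that at 500 to 1000 bp, and in unmasked distal peaks the same quotient was 16.2.

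**Figure D5:**
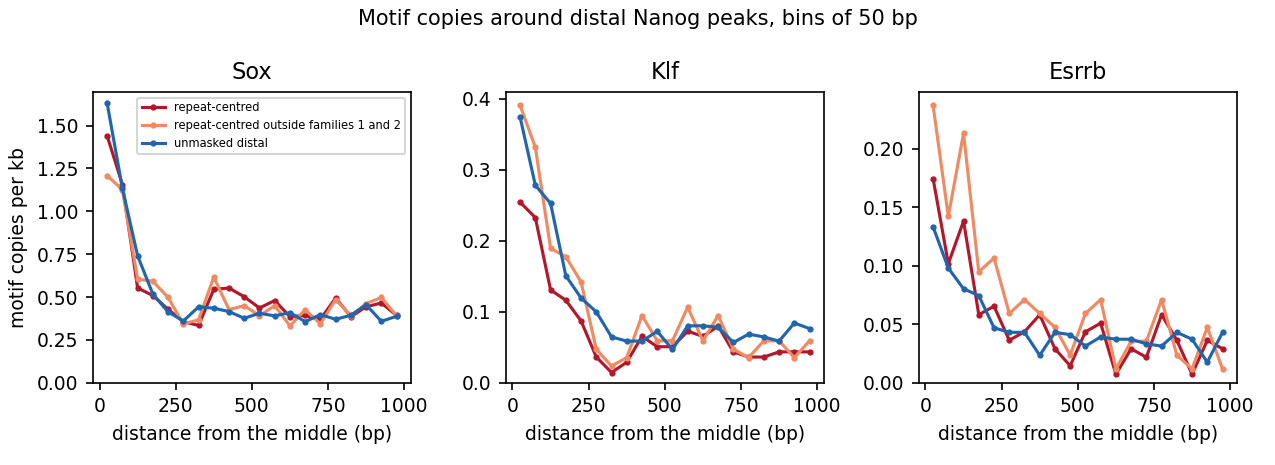
Copies per kb of the Sox, Klf and Esrrb motifs against distance from the middle of the peak (bp, bins of 50 bp) in repeat-centred peaks, those outside families 1 and 2, and unmasked distal peaks. Copies were most frequent near the middle in all 3 sets, with Sox at 1.44 per kb in members against 1.63 in unmasked distal peaks.

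Whether the repeat or the sequence beside it held the motif differed by motif. Within 100 bp of the middle, 29 of 38 Esrrb copies (76.3%, interval 59.8 to 88.6) lay wholly in masked bases, where 52.1% of windows of that length did. Outside families 1 and 2 the values were 23 of 32 (71.9%, interval 53.3 to 86.3) and 38.8%. The octamer had 24 of 41 copies in masked bases there (58.5%, interval 42.1 to 73.7) against 39.6% of windows, and over all members 26 of 44 (59.1%, interval 43.2 to 73.7) against 52.9%. The Nanog core stood more often in the sequence beside the repeat, with 45 of 127 copies in masked bases (35.4%, interval 27.2 to 44.4) against 54.5% of windows, and outside families 1 and 2 with 29 of 103 (28.2%, interval 19.7 to 37.9) against 41.2%. The composite had 6 of 28 copies in masked bases (21.4%, interval 8.30 to 41.0) against 47.3% of windows, but outside families 1 and 2 the values were 6 of 27 (22.2%, interval 8.62 to 42.3) and 33.9%, which lies within the interval. Sox copies, at 60.2% against 53.7% over all members, were at 38.3% against 40.4% outside families 1 and 2.

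Members by themselves rarely combined motifs: 18 (1.31%) had 3 of the 6 kinds and none had 4, while 94 unmasked distal peaks (1.84%) had 3 and 9 had 4. Members were selected by most kinds of motif in each of the 5 largest groups made at 100 bp. In group 1 it was chr10:14833914-14834191, the wholly masked family 9 peak shown above, 116 kb from the protein-coding gene Gje1. In group 2 it was chr14:50031487-50031775 (85.8% masked), 8.74 kb from the olfactory receptor gene Olfr725, with Sox letters. In group 3 it was chr5:149653465-149653874 (93.9% masked), in family 7 and 17.3 kb from the chaperone gene Hsph1, with octamer and Sox letters. In group 4 it was chr16:56116321-56116578, intronic and 68.1 kb from the start of Senp7, with a Klf motif. In group 5 it was chr9:3521088-3521397, 11.5 kb from Gucy1a2, a subunit gene of guanylate cyclase, with none of the 6.

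Outside these groups, 9 members had 3 kinds and the next had 2. The most masked was chr17:17738624-17738954 (87.0%), 35.0 kb from the pheromone receptor gene Vmn2r90, with octamer, Sox and Esrrb letters. The peak near the clock gene Cry1 (chr10:85209144-85209680, 47.5% masked) had the composite, octamer and Esrrb motifs. The peak near Tdrp (chr8:14014582-14015375, 33.5% masked) had Sox, Klf and Esrrb letters. Near Phf21b, an intronic peak (chr15:84834438-84834871, 16.1% masked) had the composite, Sox and Nanog core. The peak near Gm12166 (chr11:46020223-46020637, 5.06% masked) had the composite, octamer and Sox motifs. The peak near Kcnj12, a potassium channel gene (chr11:61004064-61004415), another 8.01 kb from AC127690.3 (chr17:45873185-45873702) and an intronic one 17.3 kb from Slc6a6, the taurine transporter gene (chr6:91701165-91701623), had Sox, Nanog core and Klf. The tenth, chr11:119853307-119853648 (79.8% masked), 59.96 kb from Chmp6, had Nanog core and Klf. In 8 of the 10 the masked stretch at the middle was under 100 bp, and in 9 the median 24-base word had 1 copy.

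Members were as wide as unmasked distal peaks, with a median of 320 bp (quartiles 267 and 394 bp) against 322 bp, and the GC content was close (medians 47.0 and 47.3%). The widest were 1159 bp (chr5:43860098-43861256, family 1, 7.88 kb upstream of Cd38), 870 bp (chr8:27240342-27241211, an intron, 9.84 kb from Adrb3, the beta-3 adrenergic receptor), 839 bp (chr7:79654443-79655281, family 10, 5.33 kb upstream of Ticrr, a replication regulator), 823 bp (chr6:37825298-37826120, family 2, 45.1 kb upstream of Trim24) and 800 bp (chr4:8154182-8154981, family 2, an intron, 84.5 kb from Car8).

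With respect to genes, 569 members (41.4%, interval 38.8 to 44.0) were centred in introns and 779 (56.7%) between genes. In unmasked distal peaks introns held 52.6%, a difference of -11.3 percentage points (interval -14.2 to -8.32). Families 1 and 2 were the more intergenic, with 28.6% of members in introns, and the members outside them had 49.4%, which differed from unmasked distal peaks by -3.24 points (interval -6.88 to 0.402). Coding exons held 2 members, untranslated regions 9 and other exons 16. The nearest TSS of any gene was a median of 20.5 kb away (quartiles 11.1 and 42.8 kb) and that of a protein-coding gene 46.2 kb. The distance to a further Nanog peak was at most 12500 bp in 294 members (21.4%) and in 24.9% of unmasked distal peaks, a difference of -3.55 points (interval -6.02 to -1.08). Outside families 1 and 2 the difference was -1.71 points, with an interval that spanned 0 (-4.79 to 1.38).

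Members were spread thinly over genes. They had 1297 different nearest genes, 1225 of them nearest to 1 member only, and in 538 members (39.1%) the nearest gene was protein-coding. Those nearest to 3 were A530053G22Rik, Gm9947, Gm12949, Gucy1a2, Mir1904 and Gm27393, and the next by distance, with 2 each, were Mdfic, 4930433E05Rik, Gm12165 and Gpr85. Counting protein-coding genes only, 5 members each were nearest to Trim24, a tripartite motif cofactor gene, Chordc1, Cdh2, which encodes N-cadherin, and Pcdh9, a protocadherin gene. Those of Trim24 lay 18.6 to 130 kb away, and those of Cdh2 and Pcdh9 756 to 2234 kb away. Car8, Tbl1xr1, Slc38a11, Zfp236 and Ghitm were among those with 4. All 5 of Chordc1 and of Cdh2 and all 4 of Ghitm belonged to families.

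Genes of 6 lists were then examined within 50 kb of the TSS, where 1292 of 21755 protein-coding genes (5.94%) had a member. The lists were drawn up with results of these data known, so their counts are descriptions. Of 20 naive pluripotency genes, 4 had a member. The nearest member of Fgf4, a growth factor of the early embryo, was chr7:144860071-144860305 (41.7% masked). It lay 12.8 kb downstream of the annotated 5′ end of the gene but 1198 bp from the start of another of its transcripts, and overlapped a promoter annotated in RefSeq. That of Dppa3, a maternal factor gene, was chr6:122591131-122591421 (13.4% masked) in an intron 35.1 kb upstream. That of Etv5, an ETS factor gene, was chr16:22395173-22395464 (29.1% masked) in an intron 44.4 kb downstream. That of Zfp42, which encodes the pluripotency marker Rex1, was chr8:43353797-43354067, wholly masked, a member of family 3, 47.0 kb upstream. None of the 4 held any of the 6 motifs.

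Of 14 genes of formative and primed pluripotency, 2 had a member. One was the forkhead gene Foxd3, whose nearest member was chr4:99675110-99675541 (31.25% masked), 19.03 kb downstream, with Sox letters. A stretch of it is given with these letters in capitals.
Peak near Foxd3, chr4:99675266-99675385, plus strand: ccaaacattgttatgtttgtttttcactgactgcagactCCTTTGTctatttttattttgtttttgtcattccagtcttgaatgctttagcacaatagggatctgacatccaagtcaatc

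The other lists had few genes with a member. Among 18 lineage regulators, Tfap2c had one 32.7 kb upstream (10.7% masked), with Sox letters. Zeb2, a repressor of epithelial genes, had one 12.6 kb downstream in a non-coding exon (7.42% masked), with Zeb2os as the nearest gene. Among 22 signalling genes it was Spry4, an inhibitor of FGF signalling, with a member 27.4 kb upstream (31.9% masked) that held a Nanog core motif. Among 15 genes of the silencing of repeats, Tet1, which oxidises methylcytosine, had one 9.13 kb downstream in an intron (90.7% masked, within a regulatory region annotated in RefSeq). Morc3 had one 17.3 kb downstream (62.5% masked). Of the 9 genes of the study's reprogramming network, Tead4, a Hippo pathway factor gene, had one 46.1 kb downstream (63.8% masked). Over all lists 12 of 98 genes had a member within 50 kb. Regulatory elements annotated in RefSeq overlapped 5 members, those near Fgf4 and Tet1 among them, and 48 unmasked distal peaks, from 1312 annotated elements.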

How the data were processed

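Nanog ChIP-seq peaks of 1 Bruce-4 ESC sample were analysed, and the input sample, for which no file was used here, entered no comparison. Per the study's methods, reads were aligned to mm10 with Bowtie2, duplicates and blacklisted regions were removed, and MACS2 served as the peak caller, with a cutoff not given in the sources used here. Removal of duplicates and of reads with low mapping quality can lower the number of peaks in repeats. The authors deposited peaks as chromosome, start and end in base pairs, without counts or scores, so the depth is unknown.

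Repeated lines were counted once. Masking was read as lower case in the RefSeq GRCm38.p6 sequence, which does not name its repeat finder and may differ from other masks of this build, so that membership could change with another mask, and genes and TSSs were from GENCODE vM21. Positions are 1-based. Motifs were searched on both strands without mismatch, except the composite (at most 2 mismatches); matches are letters, not measured sites. Alignments used blastn 2.17.0, and all else Python 3.11.15 with NumPy 2.4.6, pandas 2.3.3 and SciPy 1.17.1. Shares carry exact 95% Clopper-Pearson intervals and ratios 95% intervals on the log scale, and those of differences use the normal approximation. No p-value was computed. Motif search, grouping and word counts were tested on simulated sequence.

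The members and gene lists were chosen with earlier results of these data known. Peaks named were, in each of the 5 largest groups, the member with most kinds of the 6 pluripotency motifs (ties to the higher masked share, then the wider peak), the 10 such members outside them, the 5 widest, and the closest member of each list gene within 50 kb; genes named were those nearest to the most members. The families made at 200 bp, the search for their genome copies and the short Sox form were chosen after the data were seen. Some genes and peaks that this rule selects are not reported here.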

Additional observations from a re-analysis of the deposited data

How the results depend on the processing

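No paired analysis was possible because the peaks come from a single sample, and no replicate could be left out. The list has no score, so peaks at or above the median width stood in for strong peaks. The number of members was 223 with all central bases masked and 697 among the wider peaks, and stayed within 1.5 times 1375 under the other definitions. Simple repeats numbered 2 at 40% of the central bases. Members in sequence groups made up 35.1% at 90% identity, 67.5% at 70% and 50.2% with alignments of 200 bp. Unique members made up 88.9% at 50 bases and 100% when any read-length stretch of the peak counted. A further setting split distal peaks by whether at least 50% of their bases were masked, whatever the middle base. The 1028 peaks at or above that share were 787 members and 241 unmasked distal peaks, and the other members joined the comparison set. Under this split the composite ratio was 0.338, the Klf ratio 0.283, the Esrrb ratio 0.834 (from 1.30, both intervals spanning 1) and the intronic share 35.2%. Without groups of 5 or more (602 members left) the composite ratio was 0.816 and the Klf ratio turned to 1.11 (interval 0.851 to 1.45). Without families 1 and 2, an alternative added after the data were seen, the ratios were 0.860 (composite), 0.941 (octamer), 0.851 (Sox), 0.967 (Klf) and 1.86 (Esrrb), and the intronic share 49.4%. The composite ratio was 0.177 with at most 1 mismatch, the Nanog core ratio 0.658 in 200 bp, and the composite stood 7.82 times above repeat windows of 200 bp. With protein-coding genes only, introns held 35.6%. A neighbouring peak was found for 12.9% within 5 kb, 31.7% within 25 kb and 18.98% after merging within 300 bp. The width difference was -2 bp, and -4 bp for peaks masked over at least 50% of their bases against the other distal peaks. List genes with a member numbered 6 within 25 kb. Family 1 copies of at least 85% identity held a peak in 26.7% of cases, an added alternative. The cause of these shifts was not tested. GC weighting moved no ratio outside its interval. The list's unknown threshold, depth and mappability filter limit every count, and unoccupied copies cannot be told from copies below the threshold.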
